A study of Caenorhabditis elegans with 6 samples.

Results

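The fatty acid desaturase genes fat-1 to fat-7 of the nematode Caenorhabditis elegans were examined in RNA-seq counts from whole, starved first-stage (L1) larvae. The 7 genes were chosen by name, through the RefSeq transcript records that carry their symbols, and hold 14 of the 50832 records counted, among 39875 named genes. The mutant group, spr-5; met-2, carried the allele by101 of spr-5, on chromosome I, and the allele n4256 of met-2 on chromosome III, and it was set against the wild-type strain N2. Each group had 3 libraries of pooled larvae. All animals were grown on HT115 bacteria, and the larvae hatched overnight in M9 buffer without food. The count columns of all 6 libraries also carry the name L4440, that of a vector used for RNA interference by feeding, and the labels do not say how it was used. SPR-5, the worm LSD1, removes methyl groups from histone H3, and MET-2, related to SETDB1, adds them. The study asked which genes differ in expression between the mutant progeny and wild type. The labels do not say for how many generations the mutants were kept. Nor do they say that replicates came from different cultures, and the spread behind every p-value may therefore be a technical one.

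Desaturases insert double bonds into fatty acyl chains, and the worm, unlike mammals, can make all of its polyunsaturated fatty acids from saturated precursors. The enzymes work in an ordered chain. FAT-5, FAT-6 and FAT-7 place the initial double bond at the ninth carbon, with FAT-5 acting mostly on palmitic acid and the paralogs FAT-6 and FAT-7 on stearic acid. FAT-2 adds the next bond and turns oleic acid into linoleic acid. FAT-1 adds a bond at the third carbon from the methyl end and makes the class of omega fatty acids named for that position. FAT-3 and FAT-4 act on the sixth and the fifth carbon and carry the chain, with elongases, to arachidonic and eicosapentaenoic acid. The genes that act at the ninth carbon are known as targets of the nuclear receptor NHR-49 in the intestine, and their transcripts are known to respond to food and cold.

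Total counts ranged from 17062557 to 25368364 per spr-5; met-2 library and from 20010959 to 22014739 per N2 library. The counts could not check the genotype labels, because neither mutated transcript was lost. The gene spr-5 was at 129, 116 and 123 CPM (read counts scaled to a common library size with TMM) in spr-5; met-2 replicates 1, 2 and 3, against 66.2, 47.7 and 47.5 CPM in N2. The gene met-2 averaged 82.6 ± 4.03 CPM in spr-5; met-2 and 111 ± 9.35 CPM in N2 (SD, n = 3 each). Directions below are those of the libraries so labelled. Whole-animal tissue was represented in every library, with summed marker levels of 2045 to 2217 CPM in spr-5; met-2 and 2091 to 2527 CPM in N2 for 10 intestinal genes, and of 1179 to 1452 CPM in spr-5; met-2 and 1275 to 1846 CPM in N2 for 7 neuronal genes, of which unc-31 and rgef-1 were listed at 0 counts. Germline markers stood apart between the groups, at 1404 to 1491 CPM summed over 10 genes in spr-5; met-2, with pgl-1 at 0 counts, against 89.6 to 129.7 CPM in N2. The markers listed at 0 counts have several annotated isoforms, and reads shared between records may be missing from the counts. Of these markers, pgl-1 had only 1 matched record. Of 9 germline genes tested 8 rose, against 14.3% of all tested records. The part of the germline genes in the desaturase differences was not tested.

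Transcripts of fat-5 and fat-6, for desaturases that place the initial double bond, were lower in the mutant larvae by 62.4% and 66.8% of the N2 means. The third gene of that step, fat-7, and the genes of the later steps did not pass the test of the groups alone. Of the 7 genes, all of which passed the filter on low counts, fat-5 and fat-6 fell and none rose at an adjusted p below 0.05 (edgeR quasi-likelihood test, two-sided, Benjamini-Hochberg over all 14557 records tested). Over all tested records 11.7% fell, 14.3% rose and 25.9% were called in either direction. Across the 7 genes the median log2 fold change was -0.79, against -0.01 for all tested records. That median is the value of fat-2, which did not pass in this fit. In whole animals, fewer cells of a type and less RNA per cell cannot be told apart.

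**Figure D1:**
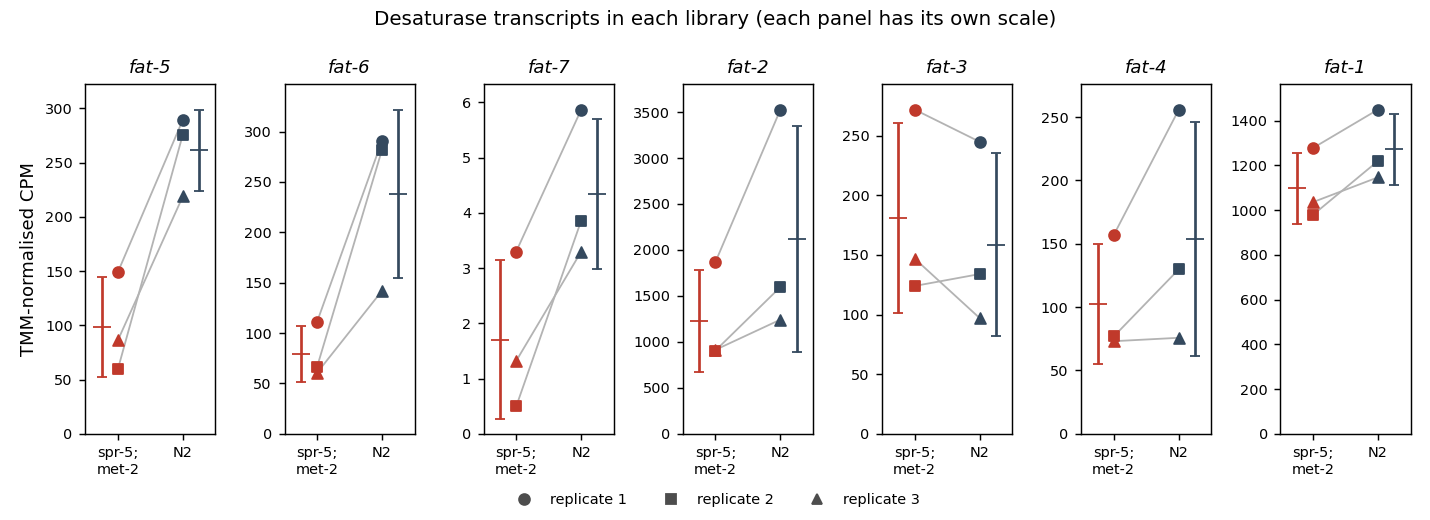
TMM-normalised CPM (vertical axes, linear, each panel with its own scale) of the 7 desaturase genes in 3 spr-5; met-2 and 3 N2 libraries; symbols mark the replicate number, grey lines join libraries of the same number, and bars are the mean ± SD. For fat-5 and fat-6 all mutant libraries lie below all N2 libraries, and replicate 1 (circles) is the highest of its group in every panel.

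The palmitic acid desaturase gene fat-5 was at 149, 59.5 and 86.2 CPM in mutant replicates 1, 2 and 3, against 289.6, 276 and 219 CPM in N2. The groups did not overlap, and the mutant libraries differed more among themselves (a coefficient of variation of 46.8%) than those of N2 (14.4%). The log2 fold change was -1.41 ± 0.31 (SE, edgeR adjusted p = 0.0134), with a mutant mean 0.376 times that of N2. Without mutant replicate 3 the log2 fold change was -1.32 and missed the threshold (edgeR adjusted p = 0.0576). On the opposite strand twk-42 shares 28 of the 1104 exonic bases of fat-5, and the sources used here do not give how the counting treated strand. That gene, of a potassium channel family, averaged 6.18 ± 1.03 CPM in the mutant and 10.9 ± 4.61 CPM in N2 (SD, n = 3 each), and its part in the fat-5 counts was not tested.

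The stearic acid desaturase gene fat-6 was at 111, 66.3 and 60.5 CPM in the mutant and at 291, 282 and 142 CPM in N2. All mutant libraries again lay below all N2 libraries, with N2 replicate 3 the nearest to them. Of the 7 genes, fat-5 and fat-6 had groups that did not overlap, as did 43.6% of all tested records, 21.3% with the mutant lower. The log2 fold change was -1.59 ± 0.33 (SE, edgeR adjusted p = 0.0102), and the call held without each single library in turn (edgeR adjusted p from 0.00529 to 0.0439). Leaving out both libraries of replicate 2, an alternative added after the data were seen, ended the calls of fat-6 (log2 fold change -1.34, edgeR adjusted p = 0.101) and fat-5 (-1.11, adjusted p = 0.0716). Leaving out both libraries of replicate 3 ended that of fat-5 (-1.45, adjusted p = 0.0931).

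Its paralog fat-7 was the scarcest desaturase transcript, at 3.30, 0.496 and 1.32 CPM in the mutant and 5.87, 3.86 and 3.30 CPM in N2. These values rest on 64, 9 and 37 counts in the mutant libraries and on 107, 78 and 66 counts in N2. For the count of 9 an exact Poisson 95% interval was 4.12 to 17.1, which covers counting error only. The highest mutant library reached the level of the lowest N2 library. With the groups alone fat-7 did not pass (log2 fold change -1.35 ± 0.58, SE, edgeR adjusted p = 0.130), with a 95% interval of -2.69 to -0.01. It passed without mutant replicate 1, at -2.21 (edgeR adjusted p = 0.0189). Because fat-6 and fat-7 are close paralogs, reads shared between them may be missing from both counts.

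Libraries with the same replicate number deviated together from their group means, so the fit was also made with the replicate number as a block. With the block 5 of the 7 desaturase genes fell and none rose, while 16.3% of all tested records fell and 35.2% were called in either direction. The log2 fold changes with the block were -1.50 ± 0.22 for fat-5 (SE, edgeR adjusted p = 0.00134), -1.57 ± 0.17 for fat-6 (adjusted p = 2.92e-04) and -1.54 ± 0.38 for fat-7 (adjusted p = 0.0159). In same-numbered pairs fat-6 was lower in the mutant library by 61.8%, 76.5% and 57.6% in replicates 1, 2 and 3. For fat-5 the mutant library was lower by 48.5%, 78.5% and 60.6%. The widest gap was that of replicate 2 for fat-5, fat-6 and fat-7.

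**Figure D2:**
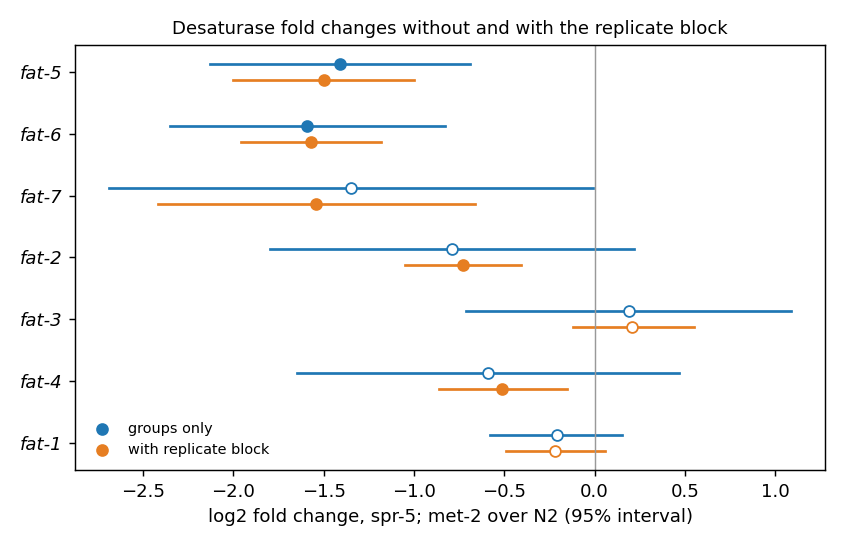
Log2 fold changes of spr-5; met-2 over N2 (horizontal axis) for the 7 desaturase genes from edgeR, with 95% intervals as lines, for the groups alone (blue) and with the replicate block (orange); filled circles passed an adjusted p of 0.05. With the block, fat-2, fat-4 and fat-7 pass in addition to fat-5 and fat-6, at nearly the same fold changes and with narrower intervals.

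The linoleic acid step, fat-2, had the highest mean desaturase level and varied widely between replicates. It was at 1868, 905 and 913 CPM in the mutant and at 3527, 1597 and 1242 CPM in N2. The groups overlapped, because mutant replicate 1 lay above N2 replicates 2 and 3. The log2 fold change was -0.79 ± 0.44 (SE, edgeR adjusted p = 0.227), with a 95% interval of -1.80 to 0.22, and it ran from -1.22 without mutant replicate 1 to -0.23 without N2 replicate 1. It passed without both libraries of replicate 1, at -0.64 (edgeR adjusted p = 0.0210). Within pairs the mutant library was lower by 47.0%, 43.3% and 26.5%. With the block fat-2 fell by 0.73 ± 0.14 on the log2 scale (SE, edgeR adjusted p = 0.00500).

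The genes of the later steps, fat-4 and fat-3, are neighbours on the same strand of chromosome IV in the annotation. The fat-4 transcript was at 157, 76.9 and 73.1 CPM in the mutant and at 256, 129.9 and 75.8 CPM in N2. Its groups overlapped, and the third pair lay nearly level. The log2 fold change of fat-4 was -0.59 ± 0.46 (SE, edgeR adjusted p = 0.385; 95% interval -1.65 to 0.47). It was -1.04 without mutant replicate 1, -0.93 without N2 replicate 3 and -0.03 without N2 replicate 1, with no call in any of these. With the block it fell, by 0.51 ± 0.15 (edgeR adjusted p = 0.0343). The fat-3 transcript was at 272, 124 and 147 CPM in the mutant, against 245, 134 and 97.1 CPM in N2. It was lower in the mutant in the pair of replicate 2 and higher in the other pairs. Neither fit called it, at 0.19 ± 0.39 with the groups alone (SE, edgeR adjusted p = 0.764; 95% interval -0.71 to 1.09) and 0.21 ± 0.15 with the block (adjusted p = 0.291; -0.12 to 0.55). Its sign turned to -0.23 without mutant replicate 1 and to -0.09 without N2 replicate 3.

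The omega desaturase gene fat-1, next to fat-2 on the same chromosome and strand, varied least between replicates of the 7 in both groups. It was at 1278, 979 and 1036 CPM in the mutant, against 1449.9, 1220.1 and 1147 CPM in N2. Its coefficient of variation was 14.5% in the mutant and 12.4% in N2, against 45.0% and 57.9% for its neighbour fat-2. The pairs of fat-1 differed by 11.8%, 19.7% and 9.67%, with the mutant lower each time. No call was made with the groups alone (log2 fold change -0.21 ± 0.16, SE, edgeR adjusted p = 0.363; 95% interval -0.58 to 0.15) or with the block (-0.22 ± 0.12, adjusted p = 0.192; -0.49 to 0.06). Scaling by library size only turned its sign, to 0.02, a setting that moved the median of all tested records to 0.21. In all, 6 of the 7 genes were lower in the mutant in every same-numbered pair, which held for 31.6% of all tested records, while 32.3% were higher in every pair and none of the 7 genes was.

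Ratios within a library need no scaling between libraries. The 3 genes acting at the ninth carbon, fat-5, fat-6 and fat-7, held 6.87%, 5.71% and 6.39% of the summed CPM of the 7 genes in mutant replicates 1, 2 and 3. In N2 they held 9.67%, 15.4% and 12.5%. No mutant library reached the lowest N2 library, and the sum of all 7 genes was 3839, 2212 and 2318 CPM in the mutant, against 6064, 3643 and 2927 CPM in N2. The share contains fat-5 and fat-6, called above, so it is not a result separate from those calls. The log2 ratio of fat-3 to fat-4 counts was 0.79, 0.69 and 1.01 in the mutant and -0.06, 0.04 and 0.36 in N2. The groups did not overlap, with a difference of 0.72 (exact permutation test, two-sided, p = 0.10, the smallest that 3 libraries against 3 allow; 0.40 after adjustment over 4 ratios). The log2 ratio of fat-1 to fat-2 overlapped, at -0.55, 0.11 and 0.18 in the mutant against -1.28, -0.39 and -0.11 in N2 (exact permutation p = 0.30). Ratios to fat-6 differed by -0.11 for fat-7 (exact permutation p = 0.90) and by 0.07 for fat-5 (p = 1.0), less than the spread between replicates. Leaving out single libraries moved these differences between -0.50 and 0.46 for fat-7, and between -0.06 and 0.28 for fat-5, so neither kept its sign. The difference in fat-1 over fat-2 was 0.51 and lay between 0.17, without N2 replicate 1, and 0.75, without N2 replicate 3.

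**Figure D3:**
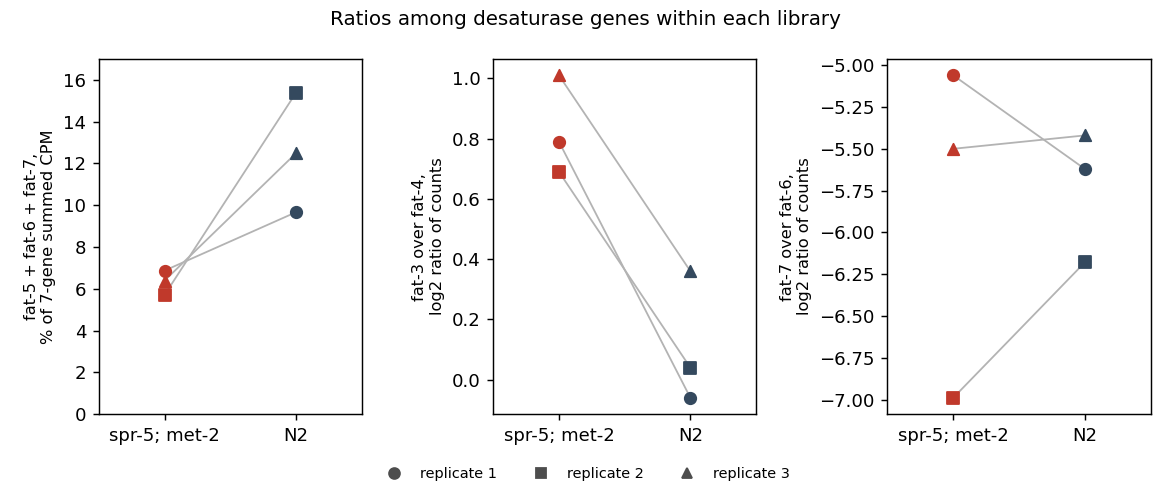
Ratios within each of the 6 libraries: the share (in percent, from 0) of the summed desaturase CPM held by fat-5, fat-6 and fat-7, and the log2 ratios of counts of fat-3 to fat-4 and of fat-7 to fat-6; symbols mark the replicate number and lines join libraries of the same number. The share is 5.71% to 6.87% in spr-5; met-2 and 9.67% to 15.4% in N2, the ratio of fat-3 to fat-4 does not overlap between groups, and that of fat-7 to fat-6 does.

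Levels of different genes were compared per kilobase of exon. In the mutant the order was fat-2 at 979 ± 441, fat-1 at 775 ± 112, fat-3 at 121 ± 53.3, fat-5 at 89.0 ± 41.7, fat-6 at 68.0 ± 23.8, fat-4 at 66.4 ± 30.7 and fat-7 at 1.51 ± 1.28 CPM per kilobase (SD, n = 3). In N2 the same quantity was 1691 ± 979.7 for fat-2, 899 ± 112 for fat-1, 237 ± 34.1 for fat-5, 205 ± 71.5 for fat-6, 106 ± 51.7 for fat-3, 99.9 ± 59.9 for fat-4 and 3.86 ± 1.20 for fat-7. Neighbours in that order were set apart where the gap between their means exceeded the larger SD. By that measure fat-2 and fat-1 were not apart in either group, nor were the successive neighbours from fat-3 to fat-4 in the mutant. In N2 fat-5 and fat-6 were not apart, nor were fat-3 and fat-4. The gap between fat-7 and its neighbour exceeded that measure in both groups. That SD includes variation between replicates that the genes share, so the measure does not compare genes within a library. In N2 fat-2 lay above fat-1 in every library, at 2810.2, 1272 and 989.7 against 1024, 862 and 810.1 CPM per kilobase. In the mutant it did so in replicates 1 and 2 (1488 and 721 against 903 and 691) but not in replicate 3 (728 against 732).

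The counting of 3 members limits that order. The genes fat-3, fat-4 and fat-6 have 4, 3 and 3 records, of which only 1 each held any count. In the WBcel235 annotation their shorter isoforms lie wholly within the longest, which has 463 of 1492, 469 of 1540 and 278 of 1166 exonic bases to itself. Reads on the shared bases may be missing from the counts, so the levels of these genes per kilobase may be too low. Per kilobase of bases found only in the longest isoform, fat-6 would stand at 285 ± 99.9 in the mutant and 858 ± 300.1 CPM in N2 (SD, n = 3). Both values lie above those of fat-5. On the same scale fat-3 would stand at 391 ± 172 in the mutant and 343 ± 167 CPM in N2, and fat-4 at 218 ± 101 in the mutant and 328 ± 197 CPM in N2. The choice does not touch a comparison of 1 gene between groups, as long as its isoforms are used alike.

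All desaturase genes varied with the replicate number. Replicate 1 was the highest library of its group for all 7 genes in both groups, which held for 22.7% of all tested records. In the mutant, replicate 1 stood at 1.40 to 1.94 times the group mean for fat-2 to fat-7. In N2 it stood at 1.54 to 1.66 times for fat-2, fat-3 and fat-4, and at 1.11 to 1.35 times for fat-5, fat-6 and fat-7. The 8 epidermal markers, most of them cuticle collagen genes that cycle with the molt, were summed at 43.1, 314 and 71.8 CPM in the mutant and at 17.9, 203 and 58.6 CPM in N2, highest in replicate 2 of both groups, with elt-3 at 0 counts. The collagen genes dpy-7, rol-6, sqt-3 and dpy-13 carried that peak, whereas nhr-25 was highest in replicate 1 of both groups. The gene bli-1, on 19 to 72 counts per library, was lowest in mutant replicate 2 but highest in N2 replicate 2. None of the 6 tested passed with the groups alone, and dpy-7 rose with the block (log2 fold change 1.11 ± 0.34, SE, edgeR adjusted p = 0.0337). These genes were singled out after their values were seen. Their part in the desaturase levels was not tested. By profile over the 6 libraries (log2 CPM centred on each record's mean), fat-4 was nearest to fat-2 among all named records of at least 5 CPM, with a root mean square difference of 0.165. For fat-5 the nearest were the C-type lectin gene clec-52 (0.0833) and the dehydrogenase family gene dhs-14 (0.117). Those nearest to fat-6 were again clec-52 (0.250) and T10B5.7 (0.292), and those nearest to fat-7 were clec-7 (0.183) and the glutathione transferase family gene gst-44 (0.201). For fat-2 they were the kinase gene dkf-2 (0.0781) and F46A8.7 (0.0995), for fat-3 C24H12.4 (0.110) and ogdh-2 (0.136), and for fat-1 F46G10.2 (0.0182) and plr-1 (0.0426).

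Intestinal markers, of the tissue in which the genes for the ninth carbon are mainly known, moved in both directions. Of 10 tested, 3 fell and 2 rose, at a median log2 fold change of 0.09, while 25.9% of all tested records were called. With the block 3 rose, since the peptide transporter gene pept-1 passed as well (0.65 ± 0.11, SE, edgeR adjusted p = 0.00326, against 0.181 with the groups alone). The gut esterase gene ges-1 was at 72.6, 34.9 and 46.9 CPM in the mutant, against 156, 129 and 127 CPM in N2 (log2 fold change -1.41 ± 0.25, SE, edgeR adjusted p = 0.00576). The proton pump gene vha-6 and the metallothionein gene mtl-2 fell as well, by 0.71 ± 0.14 (edgeR adjusted p = 0.00759) and by 1.53 ± 0.22 (adjusted p = 0.00189). The gut transcription factor gene elt-2 rose by 1.54 ± 0.24, at 49.4, 59.6 and 47.3 CPM in the mutant against 24.0, 17.4 and 12.4 CPM in N2. The intermediate filament gene ifb-2 rose by 0.83 ± 0.26, close to the threshold (edgeR adjusted p = 0.0485). It was at 3.56, 2.59 and 2.74 CPM in the mutant and 1.76, 1.48 and 1.75 CPM in N2. Only 1 of its 3 records held counts, 30 to 77 per library. None of these markers was at 0. These markers were named after their values were seen, and their part in the desaturase differences was not tested.

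A list of fasting genes and NHR-49 targets had a lower median than the desaturases. Of 7 tested, 4 fell and none rose, at a median log2 fold change of -1.20, while 11.7% of all tested records fell. The glyoxylate cycle gene icl-1 was at 1625, 834 and 1450.2 CPM in the mutant and at 2985, 2980.0 and 3126 CPM in N2. The groups did not overlap (log2 fold change -1.22 ± 0.24, SE, edgeR adjusted p = 0.00857). The mitochondrial acyl-CoA synthetase gene acs-2 was at 827, 112 and 369 CPM in the mutant, against 3414, 1781 and 1658 CPM in N2 (-2.39 ± 0.65, adjusted p = 0.0307). As for fat-5 and fat-7, replicate 2 was the lowest mutant library of acs-2 and of icl-1. The flavin monooxygenase gene fmo-2 fell by 1.20 ± 0.33. The gene hacd-1, named after its value was seen, fell by 1.83 ± 0.57, close to the threshold (edgeR adjusted p = 0.0480). It was at 8.05, 4.63 and 24.5 CPM in the mutant and 50.4, 54.5 and 28.6 CPM in N2. In same-numbered pairs hacd-1 was lower in the mutant by 84.0%, 91.5% and 14.3% in replicates 1, 2 and 3. The acs-2 call was lost without mutant replicate 3 (edgeR adjusted p = 0.105) and without N2 replicates 1, 2 and 3 (0.0720, 0.0564 and 0.0509). That of fmo-2 was lost without mutant replicates 2 and 3 (0.0985 and 0.0937) and N2 replicates 1 and 3 (0.0723 and 0.0814), and with library size only (0.0536). Leaving out the pair of replicate 1 ended the fmo-2 call too (edgeR adjusted p = 0.0592). With N2 replicate 1 or N2 replicate 3 left out, icl-1 was the only gene of the list that still fell, so hacd-1 was not called. Without the pair of replicate 3 only 1 gene of the list still fell.

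Of the regulators of desaturase expression, nhr-49, nhr-80, nhr-66 and mdt-15 were listed at 0 counts in all libraries, so they could not be compared. They have 7, 2, 10 and 5 annotated isoforms and 3, 2, 7 and 1 matched records in the counts. Reads on bases shared between records may be missing from the counts. For mdt-15 no second record was matched, so why its record held 0 counts is not known. A listed 0 is therefore no measure of absence, here or for the markers listed at 0 counts. Of 9 other regulators tested, 1 rose and none fell, at a median log2 fold change of 0.12, while 25.9% of all tested records were called. The member that rose was scp-1, a homologue of the SREBP chaperone SCAP, at 27.1, 183 and 31.2 CPM in the mutant against 18.0, 12.3 and 12.5 CPM in N2. Mutant replicate 2 stood far above the others. The log2 fold change of scp-1 was 2.50 ± 0.72 (SE, edgeR adjusted p = 0.0376), and 1.04 without that library. The call was lost without N2 replicates 1, 2 and 3 (edgeR adjusted p = 0.0713, 0.113 and 0.114) and with limma voom (0.0985). Without the pair of replicate 2 it was lost too, at 0.94 (edgeR adjusted p = 0.0633). The scp-1 call also ended without the pair of replicate 3, where 0 regulators rose. The SREBP gene sbp-1, which drives desaturase transcription, was at 115, 99.5 and 98.5 CPM in the mutant and 161, 139 and 117 CPM in N2, and did not pass with the groups alone (log2 fold change -0.42, edgeR adjusted p = 0.0723) but did with the block (-0.41, adjusted p = 0.0224). With the block skn-1 rose too, at 0.55 (edgeR adjusted p = 0.0244). Both were named after their values were seen.

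Elongase genes, whose enzymes alternate with desaturases, showed no common direction. Of 6 tested, 1 rose and none fell, at a median log2 fold change of -0.20, while 25.9% of all tested records were called. That gene was elo-4, at 2.48, 5.40 and 4.19 CPM in the mutant and 0.494, 1.88 and 1.45 CPM in N2 (1.64 ± 0.49, SE, edgeR adjusted p = 0.0410). The call was lost without mutant replicates 2 and 3 (edgeR adjusted p = 0.127 and 0.114) and N2 replicates 1 and 3 (0.0566 and 0.0914). Leaving out the pair of replicate 2 ended it as well (edgeR adjusted p = 0.113). Without the pair of replicate 3 the elo-4 call was lost too, with 0 rising elongases. With the block elo-8 rose by 1.43 and elo-6 fell by 0.52 (edgeR adjusted p = 0.0443 for both), named after their values were seen. The elongase gene elo-1, which acts on polyunsaturated chains between FAT-3 and FAT-4, was at 116, 52.2 and 61.0 CPM in the mutant and 135, 73.2 and 58.0 CPM in N2, with no call in either fit.

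**Figure D4:**
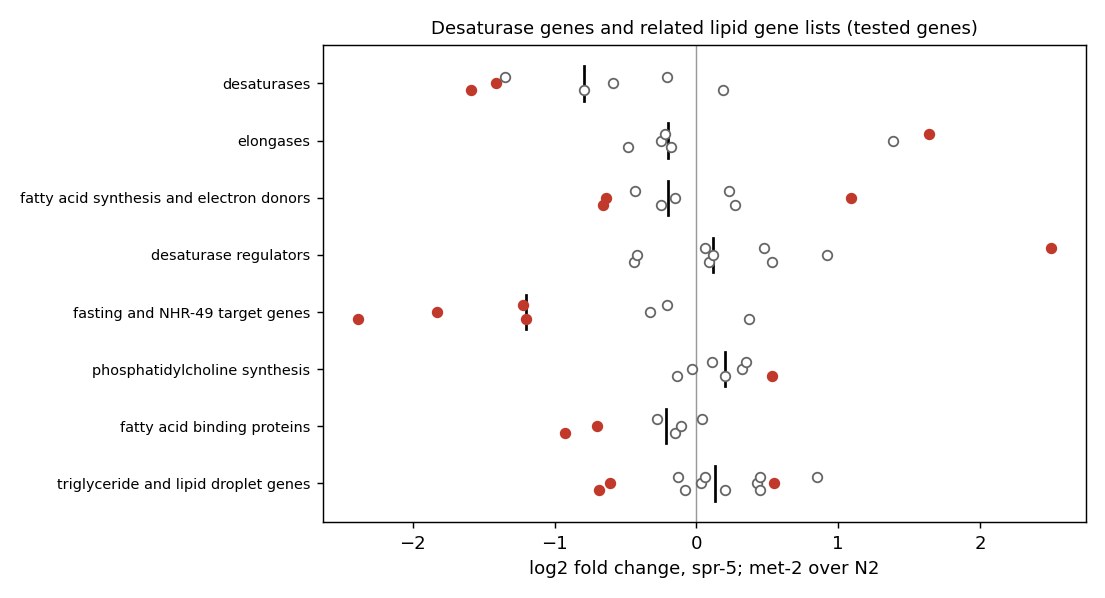
Log2 fold changes of spr-5; met-2 over N2 (horizontal axis) of tested genes in 8 lists; filled points passed an adjusted p of 0.05 in the fit of the groups alone, and black bars are list medians. The desaturase median is -0.79, the value of fat-2, and that of the fasting and NHR-49 target genes is -1.20. The other medians lie between -0.21 and 0.20.

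Genes that supply acyl chains and electrons to the desaturases went both ways. Of 8 tested, 1 rose and 2 fell, at a median log2 fold change of -0.20, while 25.9% of all tested records were called. The ATP citrate lyase gene acly-2 rose by 1.09 ± 0.13 (SE, edgeR adjusted p = 7.30e-04), at 104, 104 and 99.0 CPM in the mutant against 46.0, 55.2 and 43.5 CPM in N2. The fatty acid synthase gene fasn-1 was at 415, 406 and 318 CPM in the mutant and 453, 307 and 214 CPM in N2, with overlapping groups and no call (log2 fold change 0.23 ± 0.26, edgeR adjusted p = 0.568). The cytochrome b5 reductase family gene hpo-19, of the enzymes that pass electrons to desaturases, fell by 0.64 ± 0.11 (edgeR adjusted p = 0.00563). It was at 126, 105 and 114 CPM in the mutant and at 185, 174 and 177 CPM in N2. The hydroxyacyl-CoA dehydratase family gene hpo-8 fell by 0.66 ± 0.16 (edgeR adjusted p = 0.0197). The hpo-8 call was lost without mutant replicates 2 and 3 (edgeR adjusted p = 0.0632 and 0.0904) and N2 replicate 2 (0.0597). Scaling by library size only ended it as well (0.0886), as did leaving out the pair of replicate 2 (edgeR adjusted p = 0.154). Without the pair of replicate 3 the hpo-8 call was lost too, with 0 falling genes in this list. With the block the cytochrome b5 gene cytb-5.1, an electron donor named after its value was seen, fell as well, by 0.42 ± 0.11 (edgeR adjusted p = 0.0181).

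The next lists hold genes that bind fatty acids or place them in lipids, and their counts stand beside the 25.9% of all tested records that were called. Of 6 fatty acid binding protein genes tested, 2 fell and none rose, at a median log2 fold change of -0.21. The gene lbp-6 was at 268, 179 and 196 CPM in the mutant and at 478, 364 and 385 CPM in N2 (-0.93 ± 0.19, SE, edgeR adjusted p = 0.00890). For lbp-7 the log2 fold change was -0.70 ± 0.20 (edgeR adjusted p = 0.0400), a call lost without mutant replicates 2 and 3 (0.112 and 0.0884), without N2 replicates 2 and 3 (0.102 and 0.108) and with library size only (0.182). Without the pair of replicate 2 the lbp-7 call was lost as well (edgeR adjusted p = 0.225). It also ended without the pair of replicate 3, where 0 of these binding protein genes fell. Of 12 triglyceride and lipid droplet genes tested, 1 rose and 2 fell, with a median of 0.13. The acyltransferase gene acl-1 fell by 0.61 ± 0.13 (edgeR adjusted p = 0.0108), and the acyl-CoA synthetase genes acs-3 and acs-4 had log2 fold changes of -0.69 ± 0.20 (adjusted p = 0.0398) and 0.55 ± 0.17 (adjusted p = 0.0454). The acl-1 call ended with library size only (0.0656), without the pair of replicate 2 (0.109) and without that of replicate 3 (0.0693). With the block dgat-2 and mboa-6, named after their values were seen, rose by 0.92 (edgeR adjusted p = 0.0477) and by 0.47 (adjusted p = 0.0193). Of 7 phosphatidylcholine synthesis genes tested, 1 rose, the phosphotransferase gene cept-2 at 0.53 ± 0.14 (edgeR adjusted p = 0.0285), and none fell, with a median of 0.20. The calls of acs-3, acs-4 and cept-2 did not hold without single libraries, with adjusted p up to 0.156 without mutant replicate 3 for acs-3, 0.118 without mutant replicate 2 for acs-4 and 0.105 without mutant replicate 2 for cept-2. Among the called lipid genes, acly-2 kept its call under every alternative run, while icl-1, hpo-19 and lbp-6 lost theirs only when a same-numbered pair was left out. Without the pair of replicate 3 the edgeR adjusted p was 0.0762 for icl-1, 0.0817 for hpo-19 and 0.0868 for lbp-6. Without that of replicate 2 it was 0.0838 for hpo-19 and 0.0649 for lbp-6.

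In the authors' deposited table, fat-5 and fat-6 had log2 fold changes of -1.35 (adjusted p = 7.31e-05) and -1.52 (adjusted p = 1.51e-05). The authors' deposited table gave fat-7 at -1.19 (adjusted p = 0.0645) and fat-2 at -0.73 (adjusted p = 0.153), both above 0.05. Its values for the remaining members were -0.20 for fat-1, 0.18 for fat-3 and -0.55 for fat-4 in the authors' deposited table, with adjusted p of 0.481, 0.789 and 0.360.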

How the data were processed

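For each of 3 spr-5; met-2 and 3 N2 libraries the authors deposited raw counts of reads per RefSeq record, and sample titles gave group and number. Per the file headers, alignment was by HISAT2. The headers also carry the name L4440, an RNA interference feeding vector, with no statement of its use. Tools named in the submitters' processing notes are featureCounts, Trimmomatic, FastQC and DESeq2 2.11.40.2, and the build named is ce10. No source used here gives the strand or shared-read settings. The authors' deposited comparison holds a mean signal, the log2 fold change with an error score and a Wald score, and raw and adjusted p-values.

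Records were named through a RefSeq table of WBcel235, with exon lengths from Ensembl's annotation of WBcel235. Since this is not the authors' build, coordinates are left out. A gene with several records was taken at its most abundant one. No record matched elo-3, elo-5, cytb-5.2, paqr-1, tcer-1, acdh-1, sams-1, unc-15 or snb-1. Records were kept by filterByExpr (minimum count 10, minimum total 15), scaled by TMM and tested with edgeR 4.0.16 (quasi-likelihood, R 4.3.3), after a test on simulated data. The SE is the log2 fold change divided by the square root of F. Intervals use the test's degrees of freedom.

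Same-numbered libraries had deviations from their group means that correlated over all tested records at 0.49, 0.39 and 0.21 for replicates 1, 2 and 3, so the numbers were taken to pair the libraries; this pairing comes from the data, not from the labels. Alternatives were other scalings, other filters, DESeq2 1.42.0, limma voom 3.58.1, the block, records summed per gene and each library left out. Ratios within a library used counts plus 0.5. Within-pair log2 differences used CPM plus 0.5.

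Members and lists were chosen with earlier results of these data known. The text names all members, up to 3 called genes per list with the smallest adjusted p, and the 2 nearest profiles of each member. Beside the intestinal, epidermal, neuronal and germline markers, 4 of 7 body wall muscle genes were tested, of which unc-27 and pat-10 fell and none rose. Over all tested records 11.7% fell.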

Additional observations from a re-analysis of the deposited data

How the results depend on the processing

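The calls of fat-5 and fat-6 held under DESeq2's size factors, DESeq2, limma voom, library size only, records summed per gene, a minimum of 1 CPM in 3 libraries and no count filter, and fat-1 and fat-3 were called under no alternative. Without single libraries or same-numbered pairs, 0 to 4 members fell, 0 when both libraries of replicate 2 were left out and 4 without those of replicate 1. All records called ranged there from 1241 to 3849, with 928 to 2056 rising and 313 to 1803 falling. Library size only gave 828 falling records and put the median over all records at 0.21 (log2), and the rising share of calls was 77.7% against 55.0%. It turned fat-1 to 0.02, and fat-3 ranged from -0.23 to 0.63 over all alternatives.

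The replicate block added calls for fat-2, fat-4 and fat-7 and changed no other desaturase call. It moved the members falling to 5, elongases to 2 rising and 1 falling, regulators to 2 rising and 1 falling, and triglyceride genes to 3 rising, and the falling count of synthesis genes to 3, and changed no other count of the lipid lists. Among the markers it added calls for pept-1, dpy-7 and rab-3, of which rab-3, a neuronal gene, fell by 0.76 (edgeR adjusted p = 0.0253). With library size only, the fasting list had 1 rising and 2 falling, regulators 2 rising, synthesis genes 1 falling, binding proteins 1 falling and triglyceride genes 3 rising and 0 falling. Regulators had 0 rising under limma voom. Triglyceride genes had 0 rising under DESeq2's size factors, 2 without a count filter and 2 under DESeq2. Leaving out libraries gave 0 to 1 rising and 0 to 1 falling elongases, 0 to 2 falling synthesis genes, 0 to 1 rising and 0 to 1 falling regulators, 1 to 3 falling fasting genes, 0 to 1 rising phosphatidylcholine genes, 0 to 2 falling binding proteins, and 0 to 1 rising and 0 to 2 falling triglyceride genes. The cause of these changes was not tested. For the ratios the block could only flip signs within 3 pairs, and leaving out 1 library gave differences of 0.63 to 0.84 for fat-3 over fat-4, 0.17 to 0.75 for fat-1 over fat-2, -0.06 to 0.28 for fat-5 over fat-6 and -0.50 to 0.46 for fat-7 over fat-6, and the last was 0.09 with 5 added to each count. The depth limits fat-7 most, with 9 to 107 counts per library.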
